A study of Mus musculus with 8 samples.

Results

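The cytosolic ribosomal protein genes were taken as the rows of the count table named Rpl or Rps with a number, with at most 1 further letter a, x or l and a number, plus Rplp0, Rplp1, Rplp2, Rpsa and Fau. This gave 84 of the 32285 genes in the table, 51 of the large and 33 of the small ribosomal subunit. The table holds unique molecular identifier (UMI) counts of 8708 nuclei of LSK cells (lineage-negative, Sca1-positive, ckit-positive bone marrow cells, a sorted fraction that contains hematopoietic stem cells and early progenitors), from a 10x multiome experiment. Donor mice carried the T58A point mutation of the transcription factor MYC or were their WT littermates. They list 2 RNA and 2 chromatin accessibility (ATAC) samples of each genotype, and every RNA sample pooled the marrow of 2 mice. Only RNA was analysed.

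Nuclear barcodes carry a suffix from 1 to 4, called barcode sets here, and no label ties a set to a genotype or to a replicate. The table is named for T58A alone, so whether it also holds WT nuclei is not known, and T58A and WT nuclei were not compared. The table was treated as 1 sample, no p-value was made from nuclei, and all ratios were taken within each barcode set, because the sets differ in their mitochondrial and ribosomal protein share. The groups compared are nuclei gated on marker genes. A nucleus entered a gate when at least 3 of 6 markers of 1 of 12 marker lists had a UMI and no other list had as many.

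Ribosomal proteins assemble with ribosomal RNA in the nucleolus, and each ribosome needs them in near equal numbers. Their mRNAs begin with a terminal oligopyrimidine (TOP) run, a C followed by pyrimidines, through which LARP1 and the mTOR pathway control their translation. MYC raises the transcription of many ribosome genes. Loss of 1 copy of RPS19, RPL5 or RPL11 causes Diamond-Blackfan anaemia in humans, so the erythroid lineage is known to be sensitive to the supply of these proteins.

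Start sites, where the TOP run lies, are shown for 8 members. Rps21, Rps27l, Rpl22l1, Rpl6 and Rpl9 differed between gates by the rule given below, Rps27 and Rpl22 are the partners of a paralogue pair, and Rpl4 was next to the threshold in the erythroid gate. Windows run from 15 bases before to 15 bases after the start (RefSeq, GRCm38.p6), 5′ to 3′ on the gene's strand, with a C and its pyrimidine run in capitals where one begins within 5 bases of the start. The windows are Rps21 at chr2:180257364-180257393 (plus strand), Rps27 at chr3:90213634-90213663 (minus strand), Rps27l at chr9:66946071-66946100 (plus strand), Rpl22l1 at chr3:28805493-28805522 (plus strand), Rpl22 at chr4:152324421-152324450 (plus strand), Rpl4 at chr9:64173372-64173401 (plus strand), Rpl6 at chr5:121204486-121204515 (plus strand) and Rpl9 at chr5:65391417-65391446 (minus strand).
Rps21: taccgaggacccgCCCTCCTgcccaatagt
Rps27: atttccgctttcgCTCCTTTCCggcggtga
Rps27l: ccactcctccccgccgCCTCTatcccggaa
Rpl22l1: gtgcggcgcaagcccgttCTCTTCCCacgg
Rpl22: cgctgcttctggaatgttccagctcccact
Rpl4: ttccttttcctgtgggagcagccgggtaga
Rpl6: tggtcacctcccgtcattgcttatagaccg
Rpl9: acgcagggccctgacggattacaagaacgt

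Rps21, Rps27l and Rpl22 each have a further annotated start, with no such run. Of the 84 members, 65 had a start in the RefSeq table, and 31 of them, 47.7%, held the run (a C followed by at least 4 pyrimidines, on the gene's strand) at 1 start or more. The share was 21.2% among all 27025 genes listed there. The sequence CCGGAAG, searched on both strands from 250 bases before to 50 after the start, lay in 40% of the members and in 9.93% of all genes. The E-box CACGTG, the sequence that MYC with its partner MAX can bind, lay in 9.23% of the members and in 8.09% of all genes. Among 17492 protein-coding genes the shares were 21.5% for the run, 12.9% for CCGGAAG and 8.91% for CACGTG. The run and CCGGAAG overlapped in 1 member. These matches describe letters near annotated starts and were not related to the counts.

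The members together held 1007542 of 45723860 UMIs, 2.20%. Their share was 1.74% in set 1, 3.39% in set 2, 1.46% in set 3 and 2.70% in set 4. Sets 2 and 4 were thus high and sets 1 and 3 low. Mitochondrially encoded genes ran the other way, with 24.6% of UMIs in set 1, 9.98% in set 2, 24.2% in set 3 and 9.22% in set 4. Of UMIs outside the mitochondrial genes, the members held 2.31%, 3.77%, 1.92% and 2.97% in sets 1 to 4, in the same order of sets. Sets 1 to 4 held 2999, 721, 2756 and 2232 nuclei with a median of 3035, 6764, 3638.5 and 5930.5 UMIs, and 36 barcodes occurred in 2 sets. Intervals and limits below cover counting error only.

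Single members followed the order of the sum. In HSC-gated nuclei, described below, the level in UMIs per 1000000 UMIs (CPM) had the order set 2, 4, 1, 3 in 73 of 81 members with at least 1000 UMIs, against 20.6% of 9725 genes. Those genes had at least 50 UMIs in these nuclei, so some had lower counts than the members, where the order is less certain. The ratio of set 2 to set 3 in these nuclei had a median of 2.36 over the members. It ran from 1.18 for Rpsa to 3.71. Rpsa, a small subunit protein also known as the laminin receptor, was therefore the member whose level differed least between these sets. The sets' ribosomal protein level cannot be told apart from their mouse, genotype, library or cytoplasmic carry-over.

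The members differed widely in counts. Rplp1, a protein of the ribosomal stalk, had the most, 46879 UMIs (1025 CPM), and 91.5% of nuclei had at least 1 of them. Rpsa followed with 676 CPM. The fewest UMIs among the 81 were those of Rpl7l1 with 31.6 CPM and Rps27l with 23.3 CPM. Whether these counts scale with gene length was not tested. The 10 highest members held 24.8% of all member UMIs. Levels were also ordered per kilobase of gene span, because nuclear RNA contains introns, without a test that this scale fits these counts. Rplp1 again led with 835 CPM per kb, followed by Rps21 with 407. Rpl41, whose product is among the shortest known proteins, had 382. Rps14, whose loss marks the human 5q deletion syndrome, had 120 CPM per kb, and Rps19 had 63.7. Rpl11 had 51.5 CPM per kb and Rpl5 28.1.

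Paralogues of restricted expression were close to absent. Rpl3l, known from heart and skeletal muscle, had 28 UMIs in all nuclei, and Rpl39l, known from testis, had 4. Rpl10l, also known from testis, had 0 UMIs, which allows up to 0.0656 CPM over the table. These 3 genes were under the count minimum in every comparison, so 81 of the 84 members were measured in each. Paralogues with broad expression were detected, with Rpl22l1 at 110 CPM and Rpl22 at 121 CPM over all nuclei. Per kb of span, Rpl22l1 had 57.5 CPM and Rpl22, whose span is longer, had 12.5. Some rows close to the members stayed outside the naming rule, among them Rack1 with 10806 UMIs and Rpl36al with 3048. Reads that fit a member and one of its many processed pseudogenes could have been divided or dropped by the counting, so the level of any 1 member is uncertain in that respect.

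The gates against which the members were set were the HSC gate (1347 nuclei) and 6 others. These were myeloid progenitor (858), lymphoid progenitor (681), megakaryocyte-biased progenitor (290), erythroid progenitor (443), plasma cell (621) and MHC class II (158). The other 5 lists gave fewer than 10 nuclei in some set and were not compared, and 3987 nuclei entered no gate. All nuclei come from the LSK sort, which selects against mature cells, and a gate is named only for its markers. Plasma cell gated nuclei had 93.2 CPM of Irf4 and 74.7 CPM of Prdm1, plasma cell regulators outside the list, against 0.653 CPM of each in HSC-gated nuclei. Progenitor genes were also present in that gate, with Meis1 at 862 CPM against 2020 CPM and Flt3 at 308 CPM against 317 CPM in HSC-gated nuclei. The MHC class II gate came from a list for monocytes and dendritic cells. The dendritic cell gene Clec9a was among its leading genes, and the monocyte gene Csf1r had 5.50 CPM, against 4.70 CPM in HSC-gated nuclei. Irf8 had 1112 CPM in this gate against 17.5 CPM in HSC-gated nuclei, and Ly86 had 191 CPM against 4.70 CPM. Whether the gate holds monocytes was not tested. Immunoglobulin RNA was found in every gate, with Igkc at 135 CPM in HSC-gated nuclei. Doublets were not called.

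Averaged over the sets, the summed ribosomal protein level ran from 0.884-fold (MHC class II) to 1.06-fold (plasma cell) that of HSC-gated nuclei. Within single sets the ratios were wider, and in some gates they went both ways. Erythroid progenitor nuclei had 1.57%, 3.61%, 1.30% and 2.82% of UMIs in sets 1 to 4, against 1.81%, 3.32%, 1.57% and 2.68% in HSC-gated nuclei. The ratio was below 1 in sets 1 and 3 and above 1 in sets 2 and 4. Myeloid progenitor nuclei had 1.56%, 3.61%, 1.26% and 2.92%, a split of the sets like that of the erythroid gate. Over the 6 gates and 4 sets, the ratio to HSC-gated nuclei ran from 0.803, in myeloid nuclei of set 3, to 1.26, in plasma cell gated nuclei of set 4.

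On a log2 scale the mean ratio over the sets was -0.07 for the myeloid, -0.07 for the lymphoid, -0.10 for the megakaryocyte-biased and -0.07 for the erythroid gate. It was 0.08 for the plasma cell gate and -0.18 for the MHC class II gate. The plasma cell mean was -0.0044 without set 4. The megakaryocyte-biased gate had -0.07, -0.07, -0.15 and -0.11, below the HSC gate in all 4 sets. This was lost with gates made after thinning (mean -0.045) and without nuclei that hold markers of a second list (mean 0.055). The MHC class II gate was also below in all 4 sets, which was lost by 0.0024 in 1 set with HSC-gated nuclei matched on mitochondrial share. With nuclei under 10% mitochondrial UMIs, few in some sets, it was lost too, with a mean of -0.00074 and 0.38 in the highest set. Over UMIs outside mitochondrially encoded genes the erythroid mean was 0.11 and the myeloid mean 0.026. Erythroid nuclei held 32.0%, 17.1%, 31.2% and 14.2% mitochondrial UMIs in sets 1 to 4, against 19.3%, 9.14%, 20.5% and 7.91% in HSC-gated nuclei. Set 2 held 10 erythroid, 14 plasma cell and 11 MHC class II nuclei, and set 4 held 12 plasma cell nuclei, so those values rest on few nuclei.

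**Figure D1:**
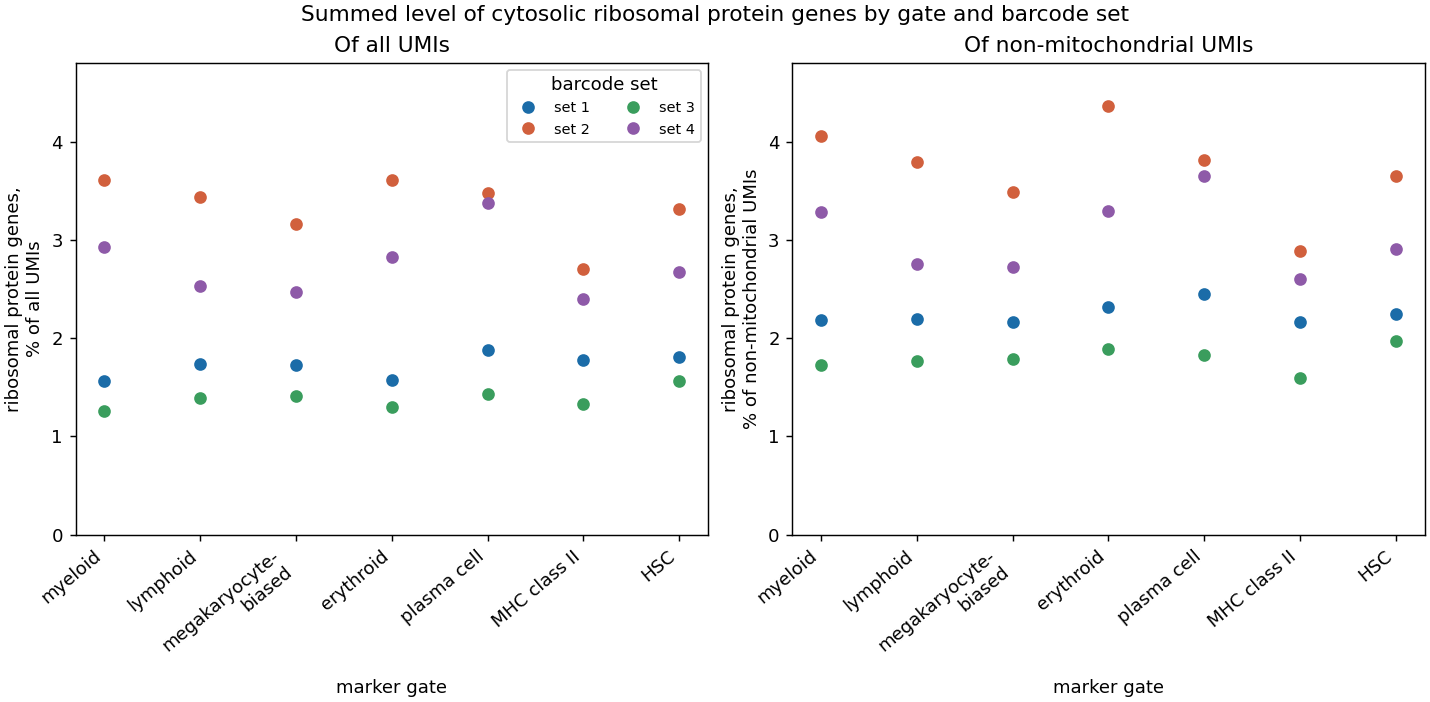
Percent of UMIs from the 84 ribosomal protein genes in each marker gate (horizontal axis) and barcode set (colour), of all UMIs (left) and of non-mitochondrial UMIs (right), 1 point per gate and set. The spread between sets is larger than the spread between gates, with HSC-gated nuclei at 3.32% in set 2 and 1.57% in set 3.

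Single members were called higher or lower than in HSC-gated nuclei where the mean log2 ratio over the sets, on CPM plus 10, reached 1.5-fold with the same sign in all 4 sets. This is a size rule, not a test. Of 486 pairs of a member and a gate, 7 met it.

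In erythroid progenitor nuclei 2 of 81 members were higher and 1 was lower. The same rule called 10.2% of 10466 genes higher and 24.4% lower, so few members were called beside genes in general. Rpl3, a large subunit protein near the catalytic centre of the ribosome, had 289, 474, 261 and 375 CPM in erythroid nuclei of sets 1 to 4, against 176, 232, 134 and 223 CPM in HSC-gated nuclei. Each erythroid value was above the HSC value of its set, with a mean log2 ratio of 0.83. Rpl3 was called under all 16 alternative settings that were run, and its lowest value among them was 0.77.

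Rps27l, the paralogue of Rps27 and a known p53 target, had 18.0, 79.0, 19.8 and 59.1 CPM in erythroid nuclei, against 9.64, 35.2, 13.2 and 28.9 CPM in HSC-gated nuclei. The mean log2 ratio was 0.67, higher in all 4 sets, and the call held under 11 of 16 alternatives. It was lost without set 2, and the ratio turned to -1.27 with nuclei under 10% mitochondrial UMIs, of which set 2 held 2 erythroid ones. The call was also lost with at least 4 markers and without nuclei with 2 or more markers of a second list. With HSC-gated nuclei matched on mitochondrial share it was lost although the mean was 0.99, since the sign was not the same in all sets. Rps21, a small subunit protein, was the member called lower. It had 227, 619, 184 and 427 CPM in erythroid nuclei, against 430, 799, 350 and 587 CPM in HSC-gated nuclei, a mean log2 ratio of -0.65. The call of Rps21 held under 12 of 16 alternatives, and with HSC-gated nuclei matched on UMI count its mean was -0.48, short of the threshold. It was also lost without set 1, without set 3 and with levels taken over non-mitochondrial UMIs. Median UMIs per nucleus were 8707 in the erythroid and 4587 in the HSC gate, and Rps27l and Rpl3 kept their calls in that matching.

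In the other gates Rps21 was never the lowest member, and its mean was negative in each. Its mean was -0.57 in myeloid, -0.32 in lymphoid, -0.30 in megakaryocyte-biased, -0.11 in plasma cell and -0.44 in MHC class II nuclei, none of which met the rule. These comparisons share the HSC-gated nuclei. Next after Rps21 in the erythroid gate came Rps13 with -0.43 and Rps3a1 with -0.42, both of the small subunit. The highest after Rpl3 and Rps27l was Rpl4, of the large subunit, with 0.48.

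UMIs of large over small subunit members had a ratio of 1.29, 1.27, 1.25 and 1.26 in erythroid nuclei of sets 1 to 4, against 1.09, 1.17, 1.13 and 1.14 in HSC-gated nuclei. All 4 erythroid values were above all 4 HSC values. The median log2 ratio to HSC was -0.03 over 48 large subunit members and -0.14 over 33 small subunit members. This difference of medians, 0.10, ran down to -0.03 over the alternatives, a turned sign. The myeloid gate also had a larger UMI ratio than the HSC gate in each set, 1.15, 1.21, 1.18 and 1.17, with medians of -0.04 and -0.06. In the lymphoid gate the medians were -0.09 and -0.06.

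The other lists of ribosome genes were set beside the members. In the erythroid gate, ribosome biogenesis genes (assembly factors and RNA polymerase I genes) were higher in 15 of 29 (51.7%, against 10.2% of all genes), with a median log2 ratio of 0.62. Nop56, a core protein of box C/D particles, had 363, 263, 370 and 468 CPM in erythroid nuclei, against 147, 149, 156 and 196 CPM in HSC-gated nuclei. Other TOP mRNA genes, which encode translation factors and the like, were higher in 7 of 21 (33.3%) with a median of 0.36, led by Pabpc4 at 1.25. Mitochondrial ribosomal protein genes were higher in 9 (11.7%, near the share of all genes) and lower in 1 of 77 measured, with a median of 0.26. The members' own median was -0.09, beside -0.11 over all 10466 genes. In these nuclei 15 of 29 ribosome biogenesis genes were thus called higher while the summed ribosomal protein level was lower in 2 sets and higher in 2. Mitosis genes were higher in 12 of 12 in the same gate, and Malat1 and Neat1, long RNAs retained in the nucleus, were both lower. The part of cell division, depth and cytoplasmic RNA in these differences was not tested.

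Of the regulators of ribosomal protein mRNA, Larp1, which binds TOP mRNAs, was higher in the erythroid gate (370, 415, 384 and 422 CPM in erythroid nuclei, against 226, 269, 251 and 275 CPM in HSC-gated nuclei, mean log2 0.62). Mycn was lower there by -1.35, with 0 CPM in 3 sets. Mycn was also lower in the myeloid (-1.03), lymphoid (-0.75), plasma cell (-0.91) and MHC class II (-0.72) gates. These values rest on few UMIs. MHC class II nuclei had 0, 18.2, 5.19 and 4.74 CPM in sets 1 to 4, against 25.7, 24.5, 5.94 and 13.7 CPM in HSC-gated nuclei. In the megakaryocyte-biased gate Mycn was not called, with a mean of 0.47.

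**Figure D2:**
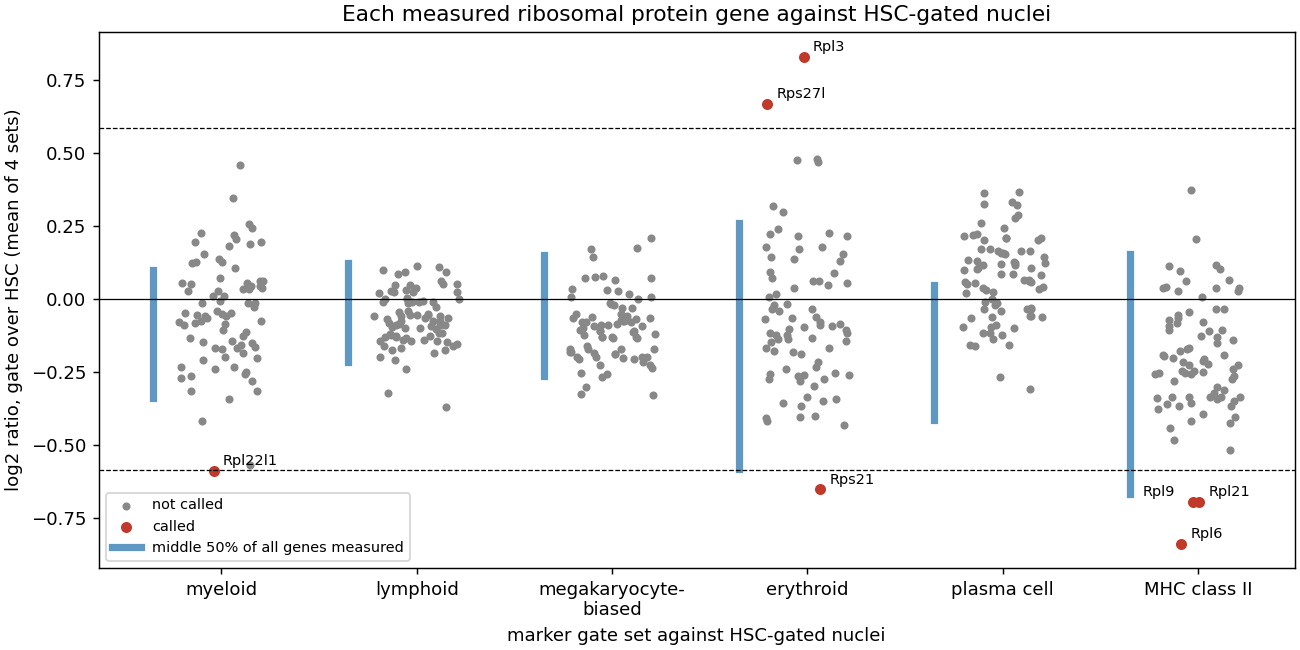
Mean log2 ratio of each of 81 measured ribosomal protein genes in 6 marker gates over HSC-gated nuclei (vertical axis, CPM plus 10), 1 point per gene, with called genes in red and named. Blue bars span the middle 50% of all genes measured and dashed lines mark 1.5-fold. Rpl3 (0.83) and Rps27l (0.67) lie above the upper line in the erythroid gate.

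In myeloid progenitor nuclei 1 of 81 members was called, and it was lower. The rule called 3.79% of 10888 genes higher and 12% lower. This member was Rpl22l1, paralogue of the RNA-binding large subunit protein Rpl22. It had 48.5, 151, 50.2 and 104 CPM in myeloid nuclei, against 90.7, 188, 77.9 and 179 CPM in HSC-gated nuclei. The mean log2 ratio was -0.59, lower in all 4 sets and just past the threshold, and the call held under 8 of 16 alternatives. It was lost with HSC-gated nuclei matched on UMI count, on mitochondrial share, without set 1 and without set 4. Rpl22 itself had a mean of -0.04.

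The ratio of Rpl22l1 to Rpl22 UMIs was 0.561, 0.851, 0.753 and 0.666 in myeloid nuclei, against 0.950, 1.08, 1.10 and 1.15 in HSC-gated nuclei. All 4 myeloid values were below all 4 HSC values, and so were those of the lymphoid gate (0.818, 0.879, 0.741 and 0.875) and of the erythroid gate (0.772, 0.707, 0.874 and 0.929). Exact 95% intervals of the myeloid and HSC gates did not overlap in set 4 (0.568 to 0.780 in myeloid nuclei and 1.03 to 1.28 in HSC-gated nuclei) and overlapped in sets 1, 2 and 3. Those of the lymphoid and of the erythroid gate overlapped the HSC intervals in all 4 sets. The ratio of Rps27l to Rps27 was 0.245, 0.300, 0.364 and 0.367 in erythroid nuclei, against 0.0857, 0.130, 0.149 and 0.149 in HSC-gated nuclei. Every erythroid ratio exceeded every HSC ratio, as did those of the myeloid gate (0.216, 0.211, 0.180 and 0.168). Intervals of the erythroid and HSC gates overlapped in sets 1 and 2 and not in sets 3 and 4. Those of the myeloid and HSC gates overlapped in all 4 sets. Rps27 itself had a mean log2 ratio of -0.37 in the erythroid gate.

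**Figure D3:**
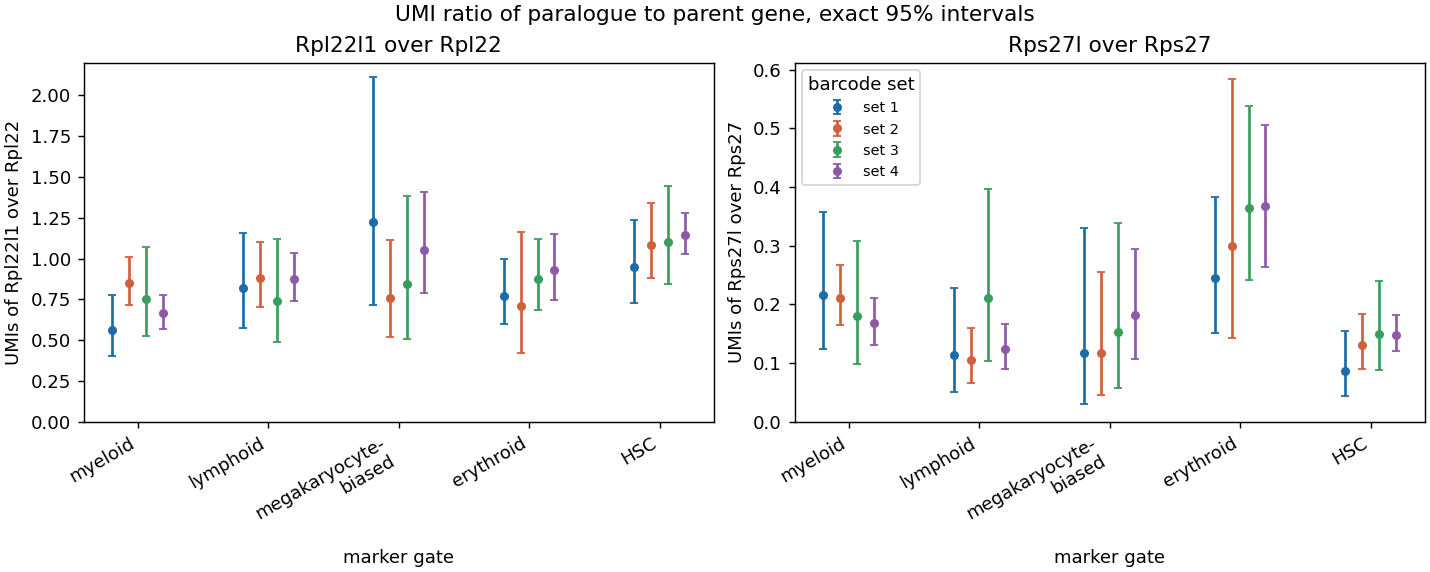
Ratio of UMIs of Rpl22l1 to Rpl22 (left) and of Rps27l to Rps27 (right) in 5 marker gates, 1 point per barcode set with its exact 95% counting interval. Myeloid nuclei lie at 0.561 to 0.851 on the left, lymphoid at 0.741 to 0.879 and erythroid at 0.707 to 0.929, all below HSC-gated nuclei at 0.950 to 1.15.

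Next in the myeloid gate were Rps21 and Rps24 at the low end (-0.57 and -0.42) and Rpl8, Rps2 and Rpl10 at the high end (0.46, 0.35 and 0.26). Rpl8, a large subunit protein, had 277, 525, 217 and 467 CPM in myeloid nuclei, against 222, 310, 209 and 276 CPM in HSC-gated nuclei. It was above in all 4 sets without reaching the fold. Ribosome biogenesis genes were higher in 1 of 29 (Nhp2, 0.59), with a median of 0.11, and no other TOP mRNA gene was called.

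In lymphoid progenitor nuclei 0 of 81 members were called, where the rule called 4% of 10689 genes higher and 6.78% lower. The members lay within a narrow range, from Rpl10 at -0.37 to Rpl8 at 0.12. Rpl22, which mice need for normal T cell development, had 96.4, 196, 84.5 and 155 CPM in lymphoid nuclei, against 95.6, 173, 70.6 and 156 CPM in HSC-gated nuclei. Its mean log2 ratio was 0.10, with set 4 slightly below. Rpl27 had 0.11 at the high end, and Rps21 (-0.32) and Rpl22l1 (-0.24) followed Rpl10 at the low end.

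In megakaryocyte-biased nuclei 0 of 81 members were called, where the rule called 3.5% of 10184 genes higher and 8% lower. The range was -0.33 (Rpl9, with Rpl30 at -0.33) to 0.21 (Rpl7l1). Below the HSC gate in all 4 sets were 29 of 81 members, against 21% of all genes. The same count was 17 of 81 in the erythroid gate (37.2% of genes), 17 in the myeloid (34.9%), 15 in the lymphoid (22.8%), 2 in the plasma cell (23.9%) and 28 in the MHC class II gate (27.9%). Rpl4 (0.18) and Rpl41 (0.17) were next at the high end.

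In plasma cell gated nuclei 0 of 81 members were called, where the rule called 2.54% of 10296 genes higher and 10.8% lower. The members' median was 0.08 and that of all genes -0.18. Rpl27, Rps4x and Rpl8 were highest (0.37, 0.36 and 0.33), and Rpl7l1 and Rpl36 lowest (-0.31 and -0.27). No ribosome biogenesis gene was called either, with a median of -0.19 over 29.

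In MHC class II nuclei 3 of 81 members were lower and 0 higher, where the rule called 22% of 10016 genes lower and 9.37% higher. They were the large subunit proteins Rpl6, Rpl9 and Rpl21. Rpl6 had 69.3, 310, 114 and 341 CPM in MHC class II nuclei, against 222, 530, 193 and 434 CPM in HSC-gated nuclei, a mean log2 ratio of -0.84. Rpl9 had 34.7, 255, 93.3 and 206 CPM in MHC class II nuclei, against 145, 329, 124 and 248 CPM in HSC-gated nuclei. Its mean of -0.69 was -0.33 without set 1, which held 23 of these nuclei. They had 57695 UMIs in total, so the set 1 values of all 3 genes rest on few UMIs. Rpl21 had 52.0, 200, 88.1 and 187 CPM in MHC class II nuclei, against 149, 319, 125 and 233 CPM in HSC-gated nuclei, with a mean of -0.69, and -0.47 without set 1. Neither Rpl9 nor Rpl21 met the rule without set 1. Rpl21 met it under 12 of 16 alternatives, and Rpl6 and Rpl9 under 15 each. The call of Rpl21 was also lost with at least 2 markers and without nuclei with 2 or more markers of a second list. With nuclei under 10% mitochondrial UMIs, Rpl21 and Rpl6 lost their calls.

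Fau, which encodes a small subunit protein made as a fusion with a ubiquitin-like protein, was highest in this gate with 0.37, and Rpl8 had 0.12. Other TOP mRNA genes were lower in 6 of 21 and ribosome biogenesis genes in 7 of 29, against the 22% of all genes that were lower.

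The remaining members chosen by role met the rule in no gate. Over the 6 gates, Rplp0 had means between -0.11 and 0.13, and its stalk partners Rplp1 and Rplp2 between -0.34 and 0.06 and between -0.36 and 0.03. Rps27a, a small subunit protein made as a fusion with ubiquitin, lay between -0.24 and 0.17. Rpsa had means between -0.09 and 0.23. Rps6, the classical target of S6 kinase, lay between -0.30 and 0.07. Among the genes of Diamond-Blackfan anaemia, Rps19 lay between -0.37 and -0.03, Rpl5 between -0.42 and 0.01, and Rpl11 between -0.25 and 0.15. In the erythroid gate these 3 had -0.17, -0.26 and -0.15. Rps14 had -0.40 in the erythroid and -0.34 in the myeloid gate. Rpl38, which in mice is needed for translation of certain Hox mRNAs, lay between -0.15 and 0.22.

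Cycling nuclei were set against non-cycling ones within a gate. Of nuclei with at least 2000 UMIs, thinned to 2000, those with 3 or more of 12 mitosis genes were called cycling and those with 0 non-cycling. In HSC-gated nuclei the members held 15729, 29713, 13645 and 25699 CPM in cycling nuclei of sets 1 to 4, against 20195, 35007, 16942 and 27256 CPM in non-cycling nuclei. The cycling value was lower in each set, by a mean log2 ratio of -0.25. Below in all 4 sets were 47 of 81 members, against 15.5% of 8575 genes.

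Cycling nuclei were also deeper, with a median of 5681, 7178, 6799 and 8467.5 UMIs in sets 1 to 4, against 2902.5, 5447, 3084 and 4975 UMIs in non-cycling nuclei. With non-cycling nuclei weighted to the depth of the cycling ones, a setting added after seeing the data, the mean was -0.11. The sets then had -0.18, -0.13, -0.14 and 0.0046, and 12 of 81 members were below in all sets, against 8.28% of genes. The difference was thus smaller at matched depth, and its sign was lost in set 4.

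The lymphoid gate had a mean of -0.17, with 22 of 81 members below in all sets against 11.3% of 7049 genes. At matched depth it had -0.08, with 7 of 81 against 8.49%. Ungated nuclei had -0.23, with 60 of 81 members below in all sets against 18.4% of genes. With matched depth they had -0.08, with 14 of 81 against 12.3%. The myeloid gate had -0.08, with 11 of 81 against 5.5%, and at matched depth 0.03, with 2 of 81 against 4.38%. That matching left out 88 of 492 cycling nuclei, and 1 member, Rpl14, met the rule in it, higher in cycling nuclei by 0.61. Before matching, only 1 member, Rps13 in the HSC gate, met the 1.5-fold rule among these 4 comparisons, where 5.07% of genes were higher and 4.17% lower in the HSC gate. The other gates had 0 called members, where 6.87% and 1.29% of genes were higher and lower in the myeloid, 7.04% and 3.59% in the lymphoid and 3.74% and 3.16% in ungated nuclei. Rps13 had 130, 254, 119 and 218 CPM in cycling nuclei, against 242, 386, 189 and 278 CPM in non-cycling nuclei, a mean of -0.60, and with matched depth 0 members were lower in that gate.

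**Figure D4:**
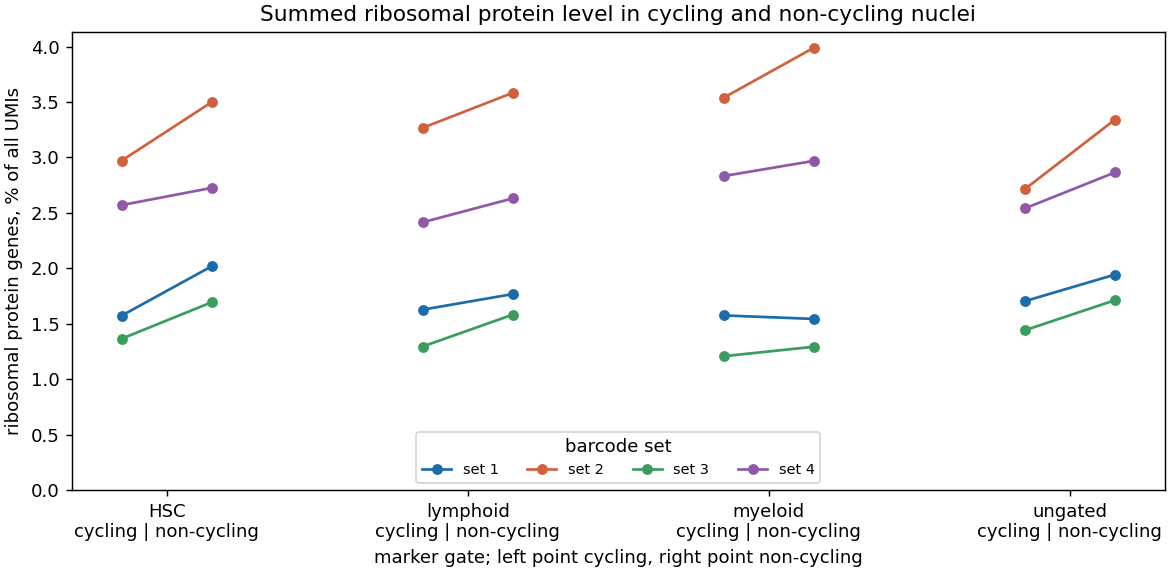
Percent of all UMIs from the 84 ribosomal protein genes in cycling (left point) and non-cycling (right point) nuclei of 4 gates, joined within each barcode set (colour), before matching on depth. In the HSC gate the cycling point is lower in all 4 sets, with a mean log2 ratio of -0.25, which was -0.11 with matched depth.

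Depth and mitochondrial share moved with the members' share across all nuclei of a set. In 5 bins of depth, the shallowest to the deepest bin of set 3 had 1.82%, 1.74%, 1.62%, 1.47% and 1.25% of UMIs from the members. The deepest bin was also the lowest in the other 3 sets, at 1.59% in set 1, 3.14% in set 2 and 2.62% in set 4. In 5 bins of mitochondrial share, the members' share of non-mitochondrial UMIs was 3.14%, 3.51%, 3.87%, 4.00% and 4.32% in set 2, low to high. The highest bin also led in set 1 (2.55%, with 2.13% in the lowest bin), set 3 (2.19% and 1.67%) and set 4 (3.28% and 2.70%). Of all UMIs the order turned in 2 sets, with 1.55% in the highest and 1.84% in the lowest bin of set 1, and 1.37% and 1.44% in set 3. Malat1 was lower in the highest bin of each set, with 5408 CPM in the highest and 11123 CPM in the lowest bin of set 1.

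**Figure D5:**
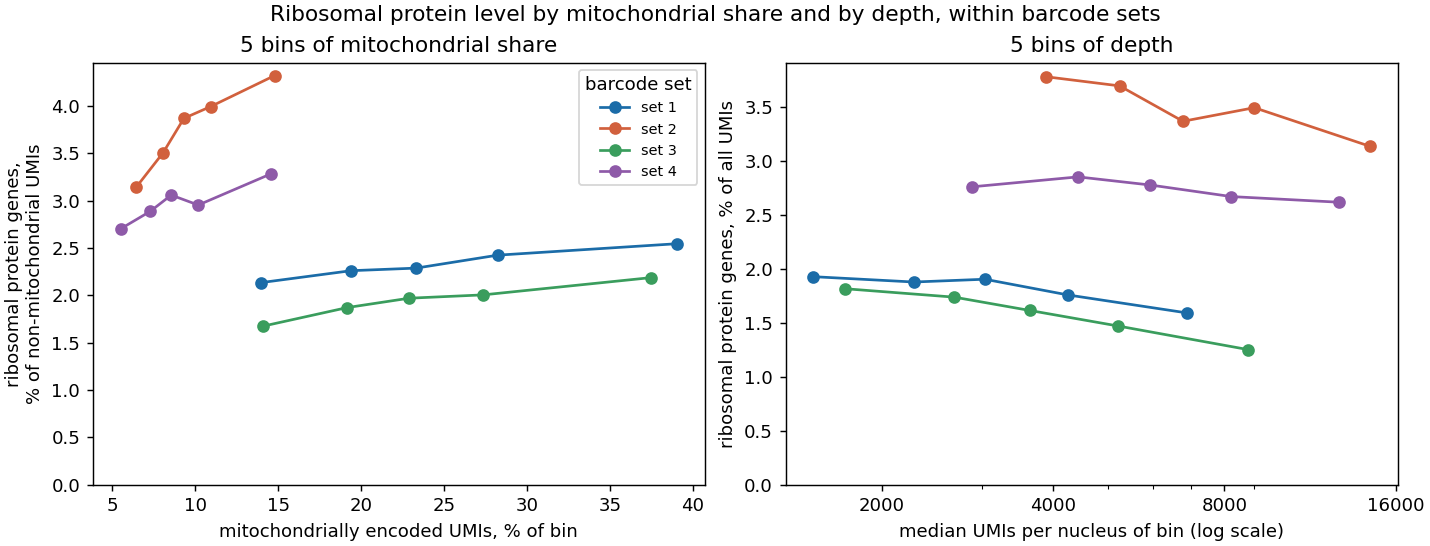
Ribosomal protein genes as percent of non-mitochondrial UMIs against mitochondrial share (left), and as percent of all UMIs against median UMIs per nucleus on a log axis (right), in 5 bins of nuclei within each barcode set (colour). On the left the share of non-mitochondrial UMIs is highest in the top mitochondrial bin of each set, 4.32% in set 2 (of all UMIs that bin is lowest in sets 1 and 3), and on the right the share is lowest in the deepest bin of each set, 1.25% in set 3.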

How the data were processed

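RNA of LSK nuclei was measured with the 10x multiome assay. The deposited values are UMI counts per gene and nucleus with no normalization, checked here to be whole numbers, and the submitters' processing notes name Cell Ranger ARC, Seurat, Signac and the build mm10. Software versions, annotation and any filtering of nuclei are not given in the sources used here. All 8708 nuclei (1001 to 24786 UMIs) were kept.

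Counts were summed per gate and barcode set and divided by all UMIs of that sum (CPM). A gene was measured with at least 50 counts over both groups and called at 1.5-fold (mean log2 ratio of CPM plus 10 over the sets) with the same sign in all 4 sets. Intervals are exact (95%). The calling rule was tested on simulated data. Python 3.11.15, numpy 2.4.6, scipy 1.17.1 and pandas 2.3.3 were used. The members and lists were chosen with earlier results of these data known. Named members are, in each gate, the 3 highest and 3 lowest with at least 200 counts, and a set chosen by role, with the highest or lowest of each list; a few genes the rule selects are not reported here. Gates, denominators, count minimum, matching and single sets were varied. The table had 0 unused columns of samples.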

Additional observations from a re-analysis of the deposited data

How the results depend on the processing

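Each summed level and count of called members was recomputed under other settings, of which matching on UMI count and leaving out the plasma cell list were added after seeing the data. Of 200 values, 161 moved by less than the spread of the 4 sets or kept their count within 1.5-fold, and 39 did not; the cause was not tested. The setting with nuclei under 10% mitochondrial UMIs left 9 and 4 HSC-gated nuclei in sets 1 and 3 and as few as 1 nucleus of a gate in a set, so its values rest on few nuclei. It gave summed log2 ratios of -0.66 (lymphoid), -0.33 (megakaryocyte-biased), -0.34 (erythroid) and -0.00074 (MHC class II), and 3 called members in the myeloid, 15 in the lymphoid, 23 in the megakaryocyte-biased, 16 in the erythroid, 4 in the plasma cell and 15 in the MHC class II gate. Each count is of 81 members. Of all genes, it called 1060 of 9311 in the myeloid, 819 of 9506 in the lymphoid and 747 of 8746 in the megakaryocyte-biased gate. The other gates had 1229 of 8507 (erythroid), 1032 of 8519 (plasma cell) and 1363 of 8722 genes (MHC class II). Without nuclei with 2 or more markers of a second list, again with under 10 nuclei in a set in 4 gates, 2 members were called in the myeloid, 2 in the lymphoid, 2 in the megakaryocyte-biased, 11 in the erythroid, 2 in the plasma cell and 15 in the MHC class II gate. Of all genes, this called 1990 of 8585 (myeloid), 1384 of 7673 (lymphoid) and 1424 of 7359 (megakaryocyte-biased). The other gates had 3162 of 7787 (erythroid), 2007 of 7508 (plasma cell) and 2614 of 7350 genes (MHC class II). The summed megakaryocyte-biased ratio was 0.055 with this setting. That ratio was -0.045 with gates made after thinning to 2000 UMIs and -0.053 with HSC-gated nuclei matched on UMI count. After thinning, 2 members were called in the myeloid, 2 in the plasma cell and 5 in the MHC class II gate. All genes gave 2275 of 9417, 2606 of 8164 and 2724 of 8005 there. With at least 4 markers, 2 members were called in the myeloid, 1 in the megakaryocyte-biased and 3 in the plasma cell gate. All genes gave 2030 of 9553, 1263 of 8054 and 2026 of 7846 there. In the myeloid gate 0 members were called with at least 2 markers, with UMIs outside mitochondrially encoded genes, without the plasma cell list, and with HSC-gated nuclei matched on mitochondrial share or on UMI count, while in the erythroid gate UMIs outside mitochondrial genes gave 5. In the same order, the myeloid settings called 1540 of 11373, 1805 of 10888, 1657 of 11004, 1519 of 10888 and 1551 of 10888 genes. The erythroid setting called 3974 of 10466 genes. Leaving out 1 barcode set at a time gave 0 to 2 called members in the myeloid gate (0 without set 1, 2 without set 2 or set 3), 2 to 3 in the erythroid and 2 to 5 in the MHC class II gate (5 without set 4). Without sets 1 to 4 in turn, the myeloid gate had 1753 of 10607, 1710 of 10371, 1791 of 10577 and 1689 of 9517 genes called. The erythroid gate had 3695 of 10058, 3452 of 10167, 3774 of 9986 and 3458 of 9069. The MHC class II gate had 3576 of 9691, 3228 of 9637, 3440 of 9614 and 2996 of 7972. Summed cycling ratios with matched depth were -0.11 (HSC), 0.033 (myeloid), -0.082 (lymphoid) and -0.083 (ungated). No paired analysis was possible because no column carries a replicate number. With 1 table and no link from sets to samples, no biological spread could be measured.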

Other observations

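Single nuclei reached far higher ribosomal protein shares than any gate. The members held over 6% of UMIs in 71 of 8708 nuclei, with 13 in set 1, 20 in set 2, 4 in set 3 and 34 in set 4. They held over 10% in 17 nuclei, 5 in set 2 and 12 in set 4, and the highest nucleus had 18.8%.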
